A study of Mus musculus with 9 samples.

Results

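Potassium channel genes were examined in the hippocampal transcriptome of lupus-prone mice. The members were the protein-coding genes of the GENCODE GRCm38 annotation whose symbol begins with Kcn, Kcnj13 excepted, with a summed read count of at least 90 over all 9 libraries. Of 93 such genes in a matrix of 47643 genes, 82 met this limit. The members nearest above the limit were Kcnq1 and Kcnrg, with 110 and 116 reads, and the genes nearest below it were Kcnj1 and Kcnk7, with 65 and 37 reads. The 11 genes below the limit were Kcna7, Kcna10, Kcne1, Kcne3, Kcnj1, Kcnk7, Kcnk15, Kcnk16, Kcnk18, Kcnmb3 and Kcnv2, and they are not described further.

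Potassium channels let potassium leave or enter the cell, and so set the resting potential, end the action potential and limit repetitive firing. The pore-forming subunits fall into voltage-gated (Kv), calcium- and sodium-activated, inwardly rectifying (Kir) and two-pore-domain (K2P) classes. Accessory subunits such as the Kv beta, KChIP and MinK proteins change the gating or the surface delivery of the pore. In hippocampal pyramidal neurons, A-type Kv4 channels and SK channels act in dendrites and spines, Kv7 channels carry the M current, and G protein-gated Kir channels carry slow inhibition.

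Poly(A) RNA of hippocampus was sequenced in 3 libraries from each of 3 groups, all labelled 6 weeks of age. The groups were MRL/mpj (wild type, untreated), MRL/lpr (MRL/MpJ-Fas lpr, a strain with an insertion in the Fas gene, untreated) and MRL/lpr+MSC (the same strain given mesenchymal stem cells). The series title describes the MRL/lpr animals without stem cells as given PBS, while the sample labels call them untreated. The strain label reads C57BL/6 for all 9 libraries, against the MRL names of the title. In a partial expression table published with the study, each of the 3 columns headed MRL/lpr was a constant multiple of 1 stem cell library for 100% of the genes present in both, while against the untreated MRL/lpr libraries this held for at most 4.4%. The groups below are therefore named as the libraries are labelled, and both comparisons with MRL/mpj are given side by side.

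Total counts ranged from 19475804 to 26912031 reads per library. MRL/lpr+MSC replicate 1 stood apart from its group on the first principal component of all genes, at -16.8 against 21.3 and 28.2. Marker lists moved between libraries as well. They are given here as summed CPM (counts scaled to the library total, adjusted by a trimmed-mean scaling factor). Beside the sums stand the list members that rose or fell in MRL/lpr and then in MRL/lpr+MSC against MRL/mpj. Of all genes tested, 4.97% fell and 4.33% rose in MRL/lpr, and 2.54% fell and 2.48% rose in MRL/lpr+MSC. CA1 pyramidal markers summed to 734 to 858 CPM in MRL/mpj, 315 to 510 CPM in MRL/lpr (5 of 7 fell) and 489 to 671 CPM in MRL/lpr+MSC (1 of 7 fell). Choroid plexus markers ran from 175 to 721 CPM, 139 to 9813 CPM and 108 to 4929 CPM, and none of the 8 passed in either comparison. Thalamic markers ran from 162 to 211 CPM, 246 to 759 CPM and 139 to 657 CPM, with 0 and 1 of 8 rising. Of the other lists, 0 of 7 dentate granule, 0 of 6 CA3 pyramidal, 0 of 8 oligodendrocyte and 0 of 7 astrocyte markers passed in either comparison. In MRL/lpr, 2 of 7 interneuron and 2 of 8 microglia markers fell, while 1 of 10 striatal, 2 of 7 endothelial and mural and 5 of 10 interferon-induced genes rose. In MRL/lpr+MSC, 1 of 8 microglia markers fell, and 1 of 7 endothelial and mural and 3 of 10 interferon-induced genes rose.

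All 82 genes had a value in the deposited FPKM (fragments scaled to gene length and library total) files, the scale on which levels of different genes are compared here. Their mean FPKM over the 9 libraries ran from 0.133 for Kcnq1 to 146 for Kcnab2, with a median of 4.95, and 66 genes reached 1 FPKM while 26 reached 10 FPKM. Kcnab2, a cytosolic beta subunit of Kv1 channels, stood far above every other member. It was followed by Kcnip2 at 61.1 FPKM, a calcium-binding partner of Kv4 pores, and Kcnj10 at 55.4 FPKM, the main inward rectifier of astrocytes. Kcnk1 reached 35.9, Kcnj4 34.9 and Kcnd2 29.5 FPKM. The neighbours Kcnk1 and Kcnj4 were separated by less than the spread of each between libraries.

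**Figure D1:**
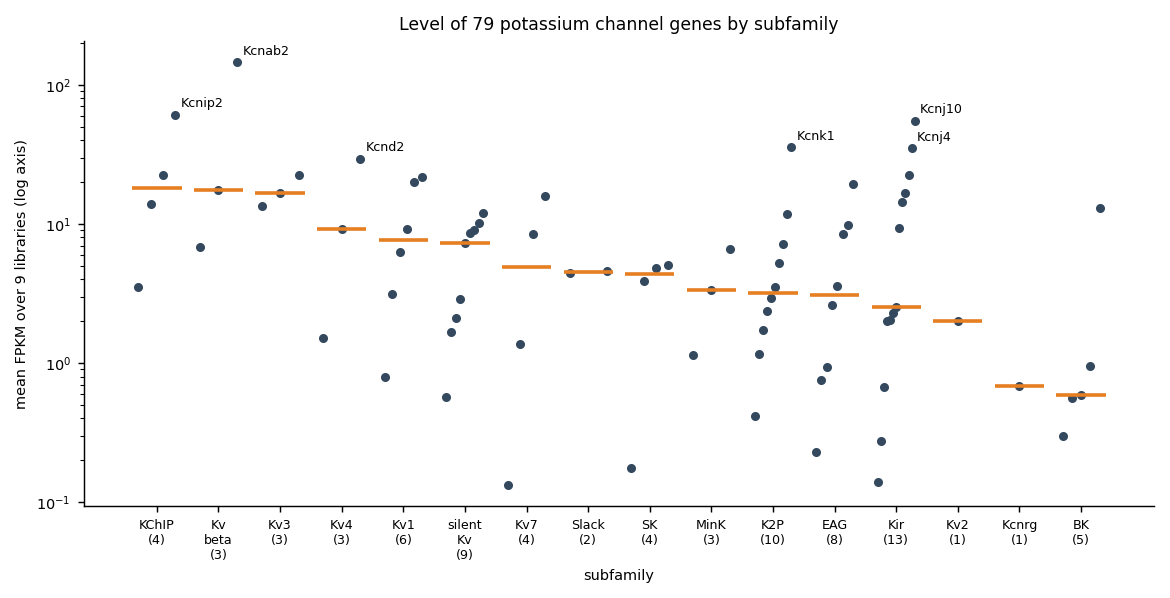
Mean FPKM over the 9 libraries (vertical log axis) of 79 of the 82 potassium channel genes, 1 point per gene, grouped by subfamily with the number of genes plotted in parentheses; the orange bar is the median of the genes plotted. Kcnab2 lies highest at 146 FPKM, above Kcnip2 at 61.1 FPKM and Kcnj10 at 55.4 FPKM.

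In the libraries labelled MRL/lpr, potassium channel genes were lower than in MRL/mpj more often than they were higher. Of 81 genes tested, 15 fell and 2 rose (limma voom on each pair of groups, Benjamini-Hochberg adjusted p under 0.05 over all 16697 genes tested). That is 21% of the members, beside 9.3% of all genes tested and 9.37% of the protein-coding genes with at least 90 reads. The 15 that fell were 18.5% of the members, beside 4.97% of all genes, and the 2 that rose were 2.47%, beside 4.33%. Of the latter, Kcnn4 passed the low-count filter through the MRL/lpr libraries alone and so had to differ, and without it 16 of 80 members passed (20%), of which 15 fell and 1, Kcnip3, rose. With a change of at least 1.5-fold required as well (called differentially expressed below), 12 were lower and 1 was higher, 16% of the members beside 5.79% of all genes (2.38% lower and 3.41% higher). The 1 higher was again Kcnn4, so without it 12 of 80 were differentially expressed (15%), all lower. The median log2 fold change of the members tested was -0.17, against 0.02 over all genes. The MRL/lpr libraries all lay below all MRL/mpj libraries for 31 members, 38.3% beside 18.5% of all genes, and all above for 7, 8.64% beside 19.4%. The 7 include Kcnn4, whose place there was fixed by the filter. In whole tissue, fewer cells of a type and less RNA per cell cannot be told apart, and the CA1 pyramidal markers given above were lower in the same libraries; their part in these counts was not tested. The count rested on the libraries used: without MRL/mpj replicate 1, 2 or 3 in turn, 2 members passed, without MRL/lpr replicate 1, 3 passed, and without MRL/lpr replicate 2, the library with 9813 CPM of choroid plexus markers, 36 passed (26 lower and 10 higher). The share of all genes that passed in the same fits is not given here, so these shifts are not shown to be particular to the members.

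In the libraries labelled MRL/lpr+MSC, 9 of 80 members tested fell and 3 rose, 15% beside 5.01% of 16196 genes and 4.77% of the protein-coding genes with at least 90 reads. Lower calls were 11.2% of the members beside 2.54% of all genes, and higher calls 3.75% beside 2.48%. Of these, 4 were differentially expressed lower and 2 higher, 7.5% of the members beside 3.43% of all genes (1.5% lower and 1.93% higher). The median log2 fold change of the members tested was -0.12, against 0.01 over all genes. All MRL/lpr+MSC libraries lay below all MRL/mpj libraries for 23 members, 28.7% beside 14.4% of all genes, and above for 11, 13.8% beside 15.2%. The 11 include Kcnj5, which passed the low-count filter through the MRL/lpr+MSC libraries alone and so had to lie above. Without MRL/lpr+MSC replicate 1, which stood apart from its group, 30 members passed (19 lower and 11 higher). Without MRL/mpj replicate 1, 2 or 3, the number was 2, 1 and 3, and without MRL/lpr+MSC replicate 2 or 3 it was 6 each. These numbers too stand without the share of all genes in the same fits.

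**Figure D2:**
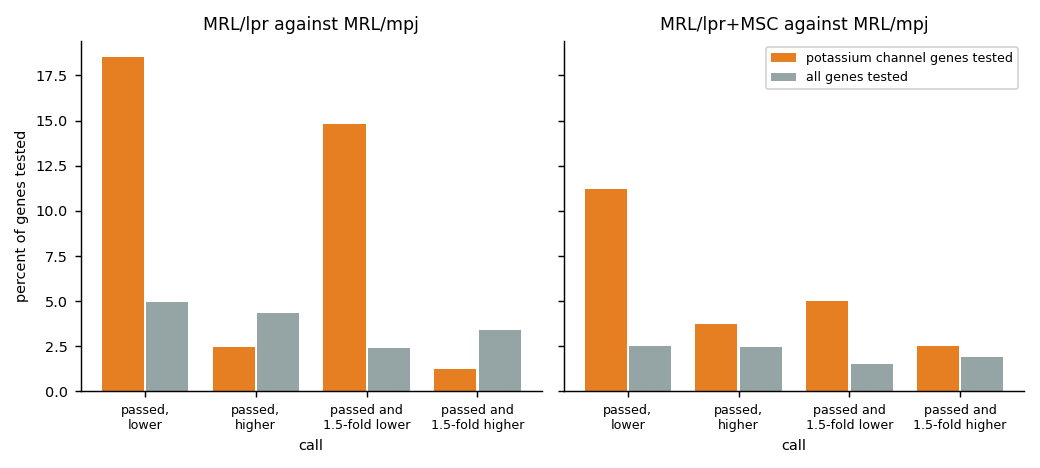
Percent of genes tested (vertical axis) that passed the test lower or higher, and that also changed at least 1.5-fold, for the potassium channel genes (orange bars) and for all genes tested (grey bars), in MRL/lpr (left) and MRL/lpr+MSC (right) against MRL/mpj. Lower calls took 18.5% of the members and 4.97% of all genes in MRL/lpr, and the higher calls there include Kcnn4, which was tested only because it was high in MRL/lpr.

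Both comparisons use the same 3 MRL/mpj libraries, so they are not independent. Of 23 members that passed in either, 6 passed in both, 11 in MRL/lpr only and 6 in MRL/lpr+MSC only, and none was called in opposite directions. The same counts are not given for all genes, so these do not show a trait particular to the members. The 6 shared calls were Kcnn2, Kcnd2, Kcnb2, Kcnj3 and Kcnip4, which fell in both, and Kcnip3, which rose in both. Whether the effect of a gene differs between the 2 groups is given by the comparison of MRL/lpr+MSC with MRL/lpr at the end.

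**Figure D3:**
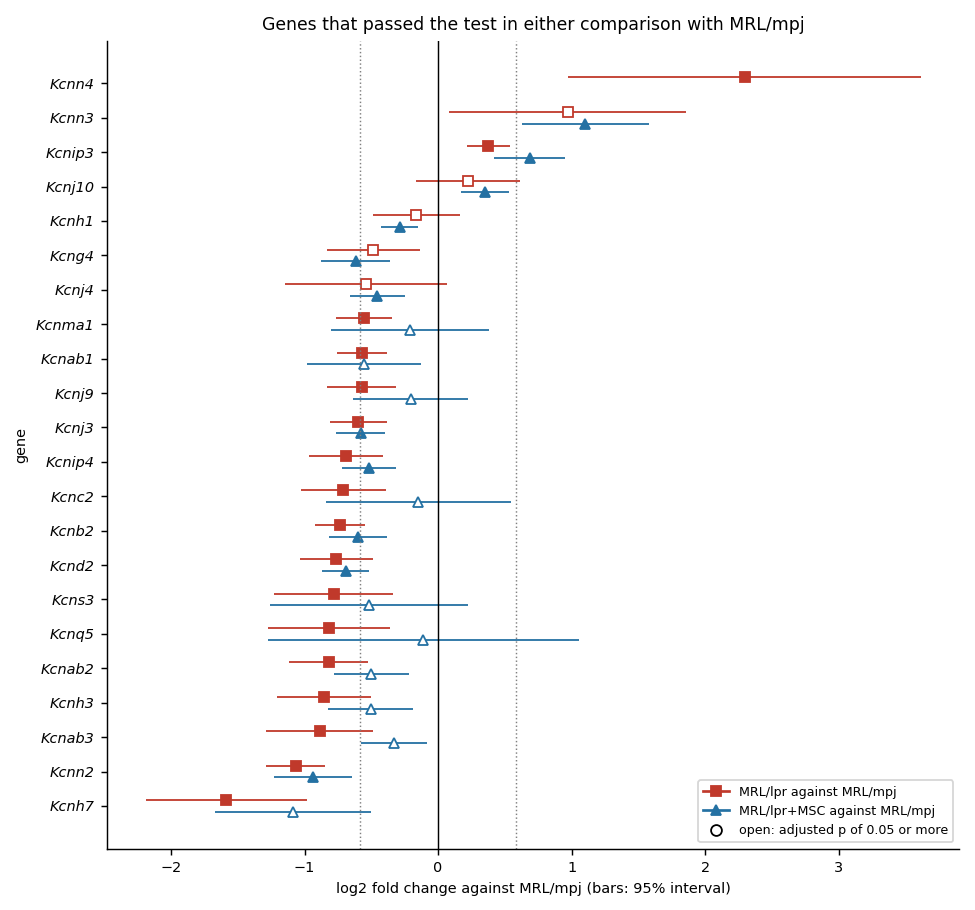
Log2 fold change against MRL/mpj (horizontal axis) with its 95% interval for 22 of the 23 potassium channel genes that passed in either comparison, MRL/lpr as red squares and MRL/lpr+MSC as blue triangles; filled symbols passed and open symbols did not, and dotted lines mark 1.5-fold. Kcnh7 and Kcnn2 lie farthest to the left and Kcnn4, not tested in MRL/lpr+MSC, farthest to the right.

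Kcnn2 encodes an SK channel, a small-conductance calcium-activated channel that limits synaptic potentials in dendritic spines. It lies on chromosome 18, and its level was 7.64 ± 0.59 FPKM (SD, n = 3) in MRL/mpj. It measured 51.1, 57.9 and 58.4 CPM in MRL/mpj, 27.9, 24.1 and 27.7 CPM in MRL/lpr, and 34.0, 29.97 and 24.4 CPM in MRL/lpr+MSC. Every MRL/lpr and MRL/lpr+MSC library lay below every MRL/mpj library. The log2 fold change was -1.07 (SE 0.094, adjusted p = 0.00294 by limma voom) in MRL/lpr and -0.93 (SE 0.125, adjusted p = 0.00968) in MRL/lpr+MSC. The first call held in all 15 alternative analyses, and the second in 13 of 15, with an adjusted p of at most 0.0611.

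Kcnn3, of the same family, had a log2 value of the opposite sign in MRL/lpr, which did not pass. Kcnn3, another small-conductance channel, measured 23.1, 24.7 and 22.0 CPM in MRL/mpj, 48.6, 26.9 and 71.7 CPM in MRL/lpr, and 37.7, 50.9 and 63.8 CPM in MRL/lpr+MSC. All libraries of both groups lay above MRL/mpj, with a wide spread. It rose in MRL/lpr+MSC by a log2 fold change of 1.10 (SE 0.20, adjusted p = 0.0318 by limma voom), while in MRL/lpr the log2 value was 0.97 (SE 0.370, adjusted p = 0.138). The MRL/lpr+MSC call was lost without any one of the MRL/mpj libraries and without MRL/lpr+MSC replicate 2. Kcnn4, the intermediate-conductance channel of blood cells and microglia, had 5, 6 and 8 reads in MRL/mpj, 78, 30 and 24 in MRL/lpr, and 8, 24 and 16 in MRL/lpr+MSC. It passed the low-count filter through the MRL/lpr libraries alone, so it had to differ to be tested, and its log2 fold change of 2.29 (SE 0.556, adjusted p = 0.0493) is given as a value only. Kcnn1, the last of the family, had log2 fold changes of -0.17 and -0.03, neither past the threshold, and its MRL/lpr libraries all lay below MRL/mpj. Summed over the 4 genes, the SK family measured 14.1, 15.2 and 15.6 FPKM in MRL/mpj, 13.6, 10.6 and 14.8 FPKM in MRL/lpr, and 14.4, 13.2 and 14.4 FPKM in MRL/lpr+MSC, so the summed levels of the groups overlapped.

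Kcnd2 encodes the main pore subunit of the dendritic A-type current of CA1 neurons, and its partners are the KChIP proteins. It spans chr6:21215503-21729805 on the plus strand (GRCm38). Kcnd2 measured 206, 208 and 206 CPM in MRL/mpj, 112, 147 and 110.0 CPM in MRL/lpr, and 122, 139 and 122 CPM in MRL/lpr+MSC. The MRL/mpj libraries were nearly identical, and all 6 others lay well below them. The log2 fold change was -0.76 (SE 0.115, adjusted p = 0.0154 by limma voom) in MRL/lpr and -0.69 (SE 0.0747, adjusted p = 0.00496) in MRL/lpr+MSC. The MRL/lpr+MSC call held in all 15 alternatives and was the only one of the 12 to do so, while the MRL/lpr call was lost without each MRL/mpj library and without MRL/lpr replicate 1, at adjusted p of up to 0.0745. The remaining Kv4 pores, Kcnd1 and Kcnd3, had log2 values of -0.11 and 0.11 in MRL/lpr and 0.20 and 0.26 in MRL/lpr+MSC, none past the threshold. Because Kcnd2 was the most abundant of the 3, the summed Kv4 level followed it, at 49.8 to 50.8 FPKM in MRL/mpj, 31.1 to 39.0 FPKM in MRL/lpr and 35.9 to 37.4 FPKM in MRL/lpr+MSC.

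The KChIP genes, whose calcium-binding products set the gating and surface level of Kv4 pores, moved in different directions. Kcnip4, at chr5:48389502-49524907 on the minus strand, measured 67.4, 67.1 and 60.2 CPM in MRL/mpj, 35.4, 47.8 and 38.6 CPM in MRL/lpr, and 41.1, 47.2 and 47.3 CPM in MRL/lpr+MSC. All libraries of both groups were below MRL/mpj, with log2 fold changes of -0.69 (SE 0.118, adjusted p = 0.0212 by limma voom) and -0.52 (SE 0.0867, adjusted p = 0.0235). These calls of Kcnip4 were lost in 4 and 5 of 15 alternatives. Kcnip3, at chr2:127456498-127522094 on the minus strand, is also known as the calcium-dependent transcriptional repressor DREAM. It measured 63.9, 62.2 and 57.6 CPM in MRL/mpj, 76.9, 81.3 and 79.8 CPM in MRL/lpr, and 117, 89.1 and 90.8 CPM in MRL/lpr+MSC. The 3 groups did not overlap, with MRL/mpj lowest and MRL/lpr+MSC highest. The log2 fold change was 0.38 (SE 0.0669, adjusted p = 0.0233) in MRL/lpr and 0.68 (SE 0.114, adjusted p = 0.0234) in MRL/lpr+MSC. Both calls were lost when GC content and gene length were corrected for, at adjusted p = 0.157 and 0.0582, and also without each MRL/mpj library. The MRL/lpr call was lost in 6 of 15 alternatives and the MRL/lpr+MSC call in 5 of 15. Kcnip2, the most abundant KChIP, stayed within 201 and 226 CPM in all 9 libraries, with log2 values of 0.02 and -0.05 that changed sign with the setting. Kcnip1 did not pass either. The summed KChIP level was 98.8 to 102 FPKM in MRL/mpj, 94.9 to 102 FPKM in MRL/lpr and 99.9 to 105 FPKM in MRL/lpr+MSC, so the fall of Kcnip4 was not seen in the sum.

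Kcnj3 encodes a pore subunit of G protein-gated inward rectifiers, which open on GABA-B, adenosine and serotonin receptor activation. It lies at chr2:55435970-55598145 on the plus strand. Kcnj3 measured 153, 155 and 145 CPM in MRL/mpj, 92.2, 113 and 94.8 CPM in MRL/lpr, and 109, 102 and 92.5 CPM in MRL/lpr+MSC. No library of either group reached the MRL/mpj range. The log2 fold change was -0.60 (SE 0.0906, adjusted p = 0.0154 by limma voom) and -0.58 (SE 0.0776, adjusted p = 0.00968), the second just under 1.5-fold. These calls were lost in 4 and 2 of 15 alternatives. The lincRNA Gm26794 overlaps 31.1% of the exon bases of Kcnj3 on the other strand, and reads of the pair cannot be told apart in a library that does not mark strand.

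Of the 6 members called in both comparisons, 2, Kcnd2 and Kcnj3, are shown from the RefSeq promoter table (GRCm38.p6, 250 bases before to 50 bases after the start), where each has a single start. Their promoters are shown because the members moved together, 5′ to 3′ on the plus strand, with the GC box GGGCGG (searched on both strands) in capitals.
Kcnd2, chr6:21215096-21215395: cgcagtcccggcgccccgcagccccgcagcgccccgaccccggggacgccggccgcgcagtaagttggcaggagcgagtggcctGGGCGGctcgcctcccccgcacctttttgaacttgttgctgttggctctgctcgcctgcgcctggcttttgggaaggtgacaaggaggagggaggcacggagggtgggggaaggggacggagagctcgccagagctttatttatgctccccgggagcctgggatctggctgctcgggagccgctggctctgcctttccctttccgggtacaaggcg
Kcnj3, chr2:55435720-55436019: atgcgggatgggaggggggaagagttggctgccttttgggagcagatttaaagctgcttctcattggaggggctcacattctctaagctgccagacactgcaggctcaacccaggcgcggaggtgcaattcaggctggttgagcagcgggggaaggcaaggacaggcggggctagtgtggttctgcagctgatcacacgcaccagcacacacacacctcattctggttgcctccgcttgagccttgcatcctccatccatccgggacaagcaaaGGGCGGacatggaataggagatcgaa
Each promoter held 1 GC box, the binding element of Sp-family factors, which was present in 35.7% of all 32851 promoters of the table and in 50.6% of the 83 promoters of 59 matched members. GC made up 68.7% of the Kcnd2 promoter and 57.7% of the Kcnj3 promoter, with 26 and 10 CpG dinucleotides. Neither held the Nr4a monomer element AAAGGTCA or the cAMP response element TGACGTCA (both strands), which were in 1.51% and 1.79% of all promoters and did not overlap the GC box. Among the 83 promoters of matched members, 1.2% held the Nr4a element and 0% the cAMP response element.

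Among the other inward rectifiers, Kcnj9, a further G protein-gated subunit, measured 69.4, 82.4 and 65.0 CPM in MRL/mpj, 44.6, 52.4 and 48.6 CPM in MRL/lpr, and 81.7, 59.4 and 50.1 CPM in MRL/lpr+MSC. The MRL/lpr libraries lay below MRL/mpj, and the MRL/lpr+MSC libraries overlapped it. It fell in MRL/lpr (log2 -0.57, SE 0.108, adjusted p = 0.0272 by limma voom), a call lost in 5 of 15 alternatives. In MRL/lpr+MSC its log2 value was -0.21 (adjusted p = 0.550). Kcnj6, their usual partner in neurons, had log2 values of -0.37 and -0.36 and passed in neither. Kcnj4, a classical inward rectifier of forebrain neurons, measured 98.5, 97.3 and 81.3 CPM in MRL/mpj, 56.6, 95.7 and 46.9 CPM in MRL/lpr, and 67.2, 66.9 and 66.7 CPM in MRL/lpr+MSC. It fell in MRL/lpr+MSC (log2 -0.46, SE 0.0874, adjusted p = 0.0342), whereas MRL/lpr replicate 2 lay within the MRL/mpj range. Kcnj10, at 258, 259 and 264 CPM in MRL/mpj, rose in MRL/lpr+MSC to 312, 325 and 359 CPM (log2 0.35, SE 0.0751, adjusted p = 0.0463), and measured 338, 231 and 358 CPM in MRL/lpr (adjusted p = 0.395). The MRL/lpr+MSC call of Kcnj4 was lost in 7 of 15 alternatives and that of Kcnj10 in 8 of 15, with adjusted p of up to 0.304 and 0.24. Summed astrocyte markers were 5170 to 5566 CPM in MRL/mpj, 4590 to 5706 CPM in MRL/lpr and 5487 to 5815 CPM in MRL/lpr+MSC; their part in the Kcnj10 result was not tested. In all, 2 of 12 Kir genes tested fell in MRL/lpr, beside 4.97% of all genes. In MRL/lpr+MSC 2 fell and 1 rose, beside 2.54% and 2.48% of all genes.

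The Kv beta genes, whose cytosolic products bind Kv1 pores and speed their inactivation or delivery, all 3 fell in MRL/lpr, beside 4.97% of all genes. Kcnab2 measured 1030.4, 1092 and 1105 CPM in MRL/mpj, 617, 711 and 511 CPM in MRL/lpr, and 878, 769 and 640.3 CPM in MRL/lpr+MSC. Both groups lay below MRL/mpj without overlap, and the log2 fold change was -0.82 (SE 0.123, adjusted p = 0.0151 by limma voom) in MRL/lpr and -0.50 (SE 0.120, adjusted p = 0.0602) in MRL/lpr+MSC. Kcnab3 measured 24.9, 24.6 and 26.0 CPM in MRL/mpj, 12.9, 10.8 and 18.02 CPM in MRL/lpr, and 19.4, 17.8 and 22.7 CPM in MRL/lpr+MSC, with log2 values of -0.88 (SE 0.169, adjusted p = 0.0281) and -0.33 (adjusted p = 0.123). Kcnab1 measured 190.1, 194 and 190.4 CPM in MRL/mpj, 128, 118 and 141 CPM in MRL/lpr, and 97.0, 163 and 139 CPM in MRL/lpr+MSC, with log2 values of -0.57 (SE 0.0791, adjusted p = 0.0120) and -0.56 (adjusted p = 0.133). The MRL/lpr calls of Kcnab2, Kcnab3 and Kcnab1 were each lost in 4 of 15 alternatives, at adjusted p of up to 0.0749, 0.120 and 0.0735. No library of either group reached the MRL/mpj range for any of the 3. The summed Kv beta level was 215 to 231 FPKM in MRL/mpj, 114 to 143 FPKM in MRL/lpr and 139 to 177 FPKM in MRL/lpr+MSC.

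The Kv1 pores that these beta subunits accompany did not pass in either comparison. Kcna1 and Kcna2, the axonal low-threshold pores, had log2 fold changes of -0.20 and -0.21 in MRL/lpr (adjusted p = 0.449 and 0.143) and of -0.12 and 0.04 in MRL/lpr+MSC. Of 6 Kv1 genes, 3 had a positive and 3 a negative log2 value in MRL/lpr. Among the delayed rectifiers of the Kv2 group, Kcnb2, at chr1:15287254-15723750 on the plus strand, measured 41.3, 38.0 and 41.5 CPM in MRL/mpj, 22.6, 24.8 and 24.9 CPM in MRL/lpr, and 29.8, 24.9 and 25.2 CPM in MRL/lpr+MSC. All libraries of both groups lay below MRL/mpj, and it fell by a log2 value of -0.74 (SE 0.0796, adjusted p = 0.00601 by limma voom) and -0.60 (SE 0.0928, adjusted p = 0.0179). In MRL/lpr, Kcnb2 and Kcnn2 were the 2 of the 17 calls that held in all 15 alternatives. The MRL/lpr+MSC call of Kcnb2 was lost in 5 of 15.

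**Figure D4:**
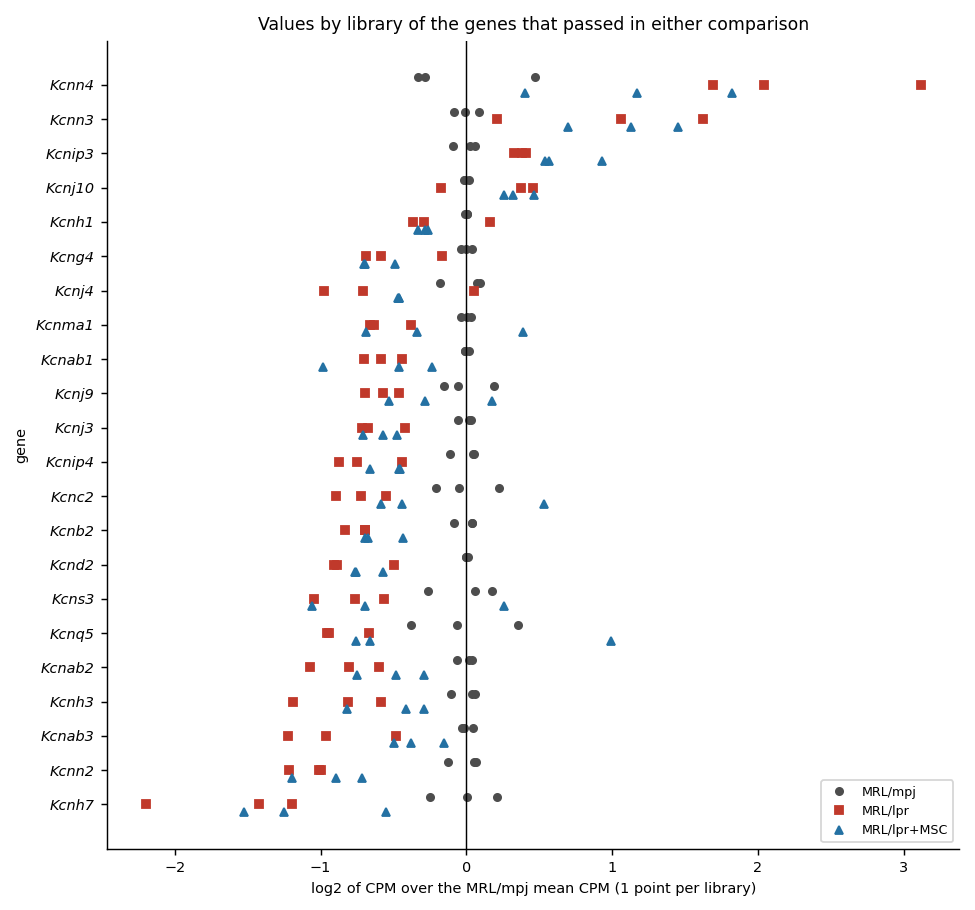
Log2 of the CPM in each library over the mean CPM of the 3 MRL/mpj libraries (horizontal axis, 1 point per library) for 22 of the 23 potassium channel genes that passed in either comparison, with MRL/mpj as grey circles, MRL/lpr as red squares and MRL/lpr+MSC as blue triangles. Kcnd2, Kcnj3, Kcnb2 and Kcnn2 show both groups left of MRL/mpj, while for Kcnq5, Kcnc2 and Kcnma1 1 triangle, MRL/lpr+MSC replicate 1, lies to the right of MRL/mpj.

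Silent Kv genes encode subunits that form no channel alone and modify Kv2 pores. Kcng4 measured 13.5, 13.9 and 14.3 CPM in MRL/mpj, 9.27, 12.4 and 8.63 CPM in MRL/lpr, and 8.56, 8.60 and 9.91 CPM in MRL/lpr+MSC. Neither group overlapped MRL/mpj, and it fell in MRL/lpr+MSC (log2 -0.62, SE 0.109, adjusted p = 0.0283 by limma voom). Kcns3 measured 6.90, 9.33 and 8.61 CPM in MRL/mpj, 4.86, 5.60 and 4.02 CPM in MRL/lpr, and 9.91, 5.11 and 3.98 CPM in MRL/lpr+MSC, and it fell in MRL/lpr (log2 -0.78, SE 0.188, adjusted p = 0.0483). Each of these calls was lost in 8 or more of 15 alternatives. The other 7 silent subunits passed in neither comparison, where 9.3% and 5.01% of all genes passed.

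Some members were lower in all MRL/lpr libraries but high in a single MRL/lpr+MSC library. The 3 given here were picked after their values were seen, and Kcns3, given above, had the same order. Kcnc2, a Kv3 pore of fast-spiking interneurons, measured 94.9, 85.2 and 115 CPM in MRL/mpj, 59.6, 66.9 and 52.8 CPM in MRL/lpr, and 142, 65.6 and 72.5 CPM in MRL/lpr+MSC. Kcnq5, a subunit of the M current, measured 70.4, 56.8 and 94.1 CPM in MRL/mpj, 38.4, 46.5 and 38.0 CPM in MRL/lpr, and 147, 46.7 and 43.7 CPM in MRL/lpr+MSC. Kcnma1, the pore of the large-conductance calcium-activated BK channel, measured 96.2, 99.1 and 101 CPM in MRL/mpj, 63.7, 76.0 and 62.5 CPM in MRL/lpr, and 129.6, 78.0 and 61.3 CPM in MRL/lpr+MSC. In each of the 3 the high value was that of MRL/lpr+MSC replicate 1, above all MRL/mpj libraries, and the remaining pair lay below them. They fell in MRL/lpr, with log2 values of -0.71 (SE 0.133, adjusted p = 0.0269 by limma voom), -0.82 (SE 0.192, adjusted p = 0.0482) and -0.55 (SE 0.088, adjusted p = 0.0176), and these calls were lost in 6, 9 and 5 of 15 alternatives. In MRL/lpr+MSC the log2 values were -0.15, -0.11 and -0.21 with all libraries, and -0.49, -0.67 and -0.51 without replicate 1. Because the genes were picked for their high value in replicate 1, the values without it had to be lower. No call is drawn from them.

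Among other Kv3 and Kv7 genes, Kcnc1, a Kv3 pore of fast-spiking cells, had log2 values of -0.28 and -0.05 and passed in neither comparison. Kcnq3, a subunit of the M current, had log2 values of -0.59 in MRL/lpr (SE 0.153, adjusted p = 0.0582 by limma voom) and of -0.26 in MRL/lpr+MSC (adjusted p = 0.253). Neither passed, although no MRL/lpr library overlapped MRL/mpj. In MRL/lpr, 1 of 5 Kv7 and 1 of 4 Kv3 genes fell, beside 4.97% of all genes.

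The EAG family holds the ether-a-go-go, Erg and Elk channels. Kcnh7, an Erg pore, had the largest fall of any member tested in MRL/lpr. It measured 75.2, 103 and 89.6 CPM in MRL/mpj, 33.3, 19.5 and 39.0 CPM in MRL/lpr, and 31.1, 61.0 and 37.6 CPM in MRL/lpr+MSC. Neither group overlapped MRL/mpj, and the log2 fold change was -1.58 (SE 0.251, adjusted p = 0.0191 by limma voom) in MRL/lpr and -1.09 (SE 0.245, adjusted p = 0.0563) in MRL/lpr+MSC. Kcnh3, an Elk pore of forebrain pyramidal cells, measured 94.3, 95.8 and 85.5 CPM in MRL/mpj, 52.4, 61.2 and 40.3 CPM in MRL/lpr, and 75.1, 69.0 and 52.2 CPM in MRL/lpr+MSC, with log2 values of -0.86 (SE 0.147, adjusted p = 0.0221) and -0.50 (SE 0.135, adjusted p = 0.0830). Kcnh1, the ether-a-go-go pore, measured 79.0, 79.6 and 80.0 CPM in MRL/mpj, 61.6, 89.1 and 65.0 CPM in MRL/lpr, and 63.1, 66.4 and 65.4 CPM in MRL/lpr+MSC, and fell in the last (log2 -0.29, SE 0.0594, adjusted p = 0.0419). The call was lost in 9 of 15 alternatives, and the MRL/lpr calls of Kcnh7 and Kcnh3 were each lost in 4 of 15. In this family 2 of 8 genes fell in MRL/lpr and 1 of 8 in MRL/lpr+MSC, beside 4.97% and 2.54% of all genes.

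Beside 9.3% of all genes in MRL/lpr and 5.01% in MRL/lpr+MSC, none of the 10 K2P genes passed. These encode the leak channels that hold the resting potential. Kcnk1, the most abundant of them, measured 97.2, 129.6 and 90.9 CPM in MRL/mpj, 60.6, 101 and 65.9 CPM in MRL/lpr, and 51.9, 81.1 and 67.5 CPM in MRL/lpr+MSC, with log2 values of -0.50 (SE 0.22, adjusted p = 0.181 by limma voom) and -0.66 (SE 0.19, adjusted p = 0.107). Kcnk2, a mechanically and lipid-gated leak channel, had log2 values of -0.39 and -0.55 (adjusted p = 0.0554 and 0.153), with no overlap in either comparison. The sodium-activated channels Kcnt1 and Kcnt2 and Kcnrg, a regulator of Kv assembly, did not pass. Kcnj15 was not tested in either comparison with MRL/mpj and Kcnn4 not in that of MRL/lpr+MSC, since they were under the filter there.

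Some members moved with markers of neighbouring tissue, and these were picked out after their values were seen. Kcne2, an accessory MinK-type subunit abundant in choroid plexus epithelium, measured 0.450, 2.49 and 2.67 CPM in MRL/mpj, 8.47, 60.4 and 0.296 CPM in MRL/lpr, and 0.467, 26.9 and 3.58 CPM in MRL/lpr+MSC. The summed choroid plexus markers of the same libraries were 175, 535 and 721 CPM, then 1105, 9813 and 139 CPM, then 108, 4929 and 592 CPM. Both were highest in MRL/lpr replicate 2 and next in MRL/lpr+MSC replicate 2. Kcne2 differed between libraries of the same group far more than between groups, with log2 values of 1.90 (SE 2.44) and 1.36 (SE 1.69) and adjusted p = 0.632 and 0.682 by limma voom.

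**Figure D5:**
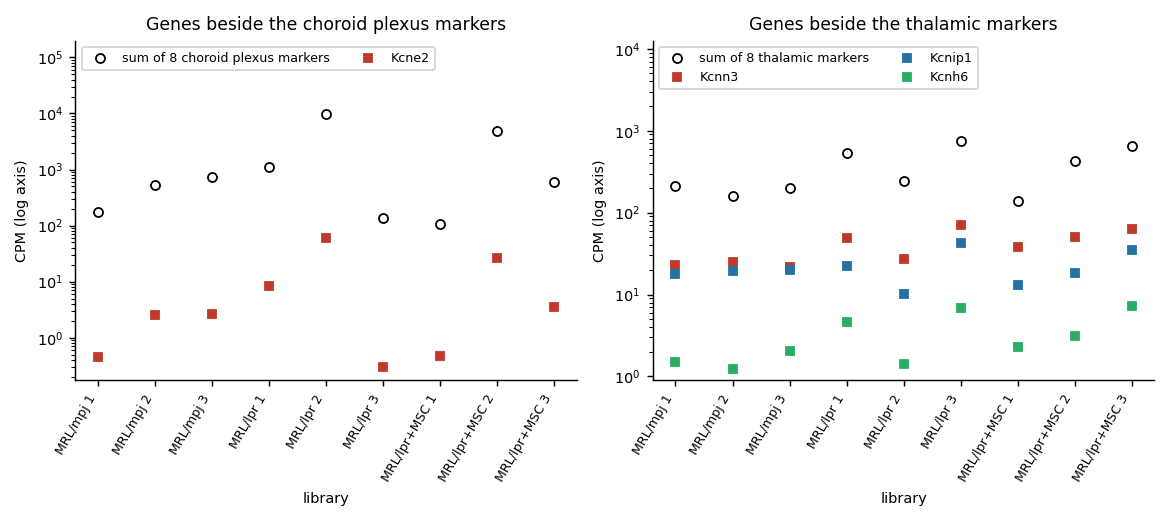
CPM by library (log axis) of Kcne2 beside the sum of 8 choroid plexus markers (left), and of Kcnn3, Kcnip1 and Kcnh6 beside the sum of 8 thalamic markers (right); open circles are marker sums and squares are genes. Kcne2 peaks at 60.4 CPM in MRL/lpr replicate 2, where the choroid plexus sum is 9813 CPM, and Kcnip1 peaks at 42.5 CPM in MRL/lpr replicate 3, where the thalamic sum is 759 CPM.

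The summed thalamic markers were 211, 162 and 198 CPM in MRL/mpj, 538, 246 and 759 CPM in MRL/lpr, and 139, 427 and 657 CPM in MRL/lpr+MSC. The sum was carried by Zic1, Prkcd, Calb2 and Slc17a6, at 349, 179, 119.8 and 55.1 CPM in MRL/lpr replicate 3. Tcf7l2, a defining thalamic marker, stayed between 5.42 and 7.44 CPM in MRL/mpj and MRL/lpr. Rora and Ramp3 had negative log2 values in MRL/lpr, -0.28 and -0.63. In MRL/lpr+MSC replicate 3, however, Tcf7l2, Rora and Ramp3 each had their highest value of any library, at 14.1, 52.8 and 7.92 CPM. Kcnip1 measured 17.8, 19.4 and 20.2 CPM, then 22.1, 10.1 and 42.5 CPM, then 12.9, 18.3 and 34.6 CPM in the same order. Kcnh6, a further Erg pore, measured 1.499, 1.25 and 2.07 CPM, then 4.62, 1.42 and 6.77 CPM, then 2.28, 3.16 and 7.21 CPM. Kcnip1, Kcnh6 and the thalamic sum were each highest in replicate 3 of both groups, as was Kcnn3 at 71.7 and 63.8 CPM. The summed interneuron markers were highest in the same 2 libraries, at 1561 and 1265 CPM against 613 to 674 CPM in MRL/mpj, through Gad1, Gad2 and Slc32a1, while Pvalb and Vip fell in MRL/lpr. Kcnn3 in MRL/lpr+MSC replicate 1, where the thalamic sum of 139 CPM was below all MRL/mpj libraries, was 37.7 CPM and above them. The part of these markers in the values of the members was not tested.

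Genes that act with potassium currents but carry other names were examined as well, such as the Kv4 partners Dpp6 and Dpp10, the Kv1 anchoring proteins, the HCN channels and the sodium pump. Of 28, 27 were tested. In MRL/lpr, their median log2 fold change was -0.17. Of the 27, 2 fell and none rose, beside 9.3% of all genes called in either direction and 4.97% called lower. The 2 were Adam23, a synaptic protein that binds the Kv1-associated Lgi1 (log2 -0.61, SE 0.105, adjusted p = 0.0218 by limma voom), and Pex5l, the trafficking partner of HCN channels (log2 -0.93, SE 0.213, adjusted p = 0.0471). Among the same genes 1 rose and none fell in MRL/lpr+MSC, where the median was -0.08. Beside this, 5.01% of all genes were called there in either direction and 2.48% were called higher. The 1 that rose was Dpp10, at 31.7, 24.9 and 32.7 CPM in MRL/mpj, 59.8, 22.7 and 133 CPM in MRL/lpr, and 61.2, 61.7 and 106 CPM in MRL/lpr+MSC (log2 1.33, SE 0.246, adjusted p = 0.0338).

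The comparison of MRL/lpr+MSC with MRL/lpr asks whether stem cell administration went with a different level of these genes. None of the 82 members tested passed in limma voom, beside 0% of all 16758 genes, and the smallest adjusted p of any gene was 0.921. At an unadjusted p under 0.05 there were 4 members, Kcnab3, Kcnip3, Kcng1 and Kcnrg, 4.88% beside 3.86% of all genes, and limma-trend gave 3 at that level and 0 after adjustment. The median log2 difference of the members was 0.09, against -0.0043 over all genes. The 3 MRL/lpr+MSC libraries all lay above the MRL/lpr libraries for 2 members and below for 2, 2.44% each, beside 4.27% and 5.72% of all genes. The data do not show that the levels were alike: the 95% interval of a member reached 0.56 to either side of its log2 value in the median, and for 23 of 82 members the whole interval lay within 1.5-fold. Of the members that fell in both comparisons with MRL/mpj, the log2 difference between the 2 groups was 0.14 for Kcnn2 and for Kcnb2, 0.07 for Kcnd2, 0.17 for Kcnip4 and 0.02 for Kcnj3.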

How the data were processed

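Hippocampal poly(A) RNA-seq of 9 libraries was analysed, with groups taken from the sample labels. Per the labels, reads were processed with TopHat2 on GRCm38, while the study's methods name STAR, HTSeq, voom and DESeq2; strand use is not given in the sources used here. The deposited values were raw read counts per gene in a single matrix for all libraries, and deposited FPKM values per gene in a file for each library, scaled by the authors to gene length and library total. Of 47643 genes, 47224 matched the GENCODE vM21 annotation.

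Counts were scaled by a trimmed mean of M values (TMM, 30% of log ratios and 5% of levels trimmed), filtered at a count of 10 scaled to the median library in at least 3 libraries with 15 reads in all, and tested with limma 3.58.1 voom and robust eBayes in R 4.3.3 on the 6 libraries of each comparison, with Benjamini-Hochberg adjustment over all genes tested. The edgeR and DESeq2 fits planned at the start were not run, since the deposited matrix could not be registered as counts by its separator. CPM are TMM-scaled over all 9 libraries. Passing means adjusted p under 0.05, and differentially expressed also at least 1.5-fold. Fold changes carry SE and 95% intervals, and p-values measure the spread between these libraries. The study describes each MRL/mpj and MRL/lpr column as a single mouse, and the labels do not say this for any group. No pair of replicates agreed within sampling noise. The procedure was tested on simulated data.

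Named genes were those differentially expressed in any comparison (at most 20 by p), those passing under 1.5-fold, the most abundant member of each subfamily, those with a known hippocampal role and those next to the summed count limit. Results of some members are not reported here, though the counts include them. The members and the marker and partner lists were chosen with earlier results of these data known. Alternatives were other size factors, other filters, a fit of all libraries, a replicate block, leaving out each library and, chosen after the data were seen, limma-trend, library quality weights, correction for GC content and length, and total-count scaling. Promoter sequences are from RefSeq.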

Additional observations from a re-analysis of the deposited data

How the results depend on the processing

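The number of members that passed in MRL/lpr against MRL/mpj, 17, was 10 with all 9 libraries in one fit, 31 with library quality weights and 26 after GC content and length correction, and 2 to 36 leaving out 1 library in turn. The differentially expressed number, 13, was 21 with the weights, 22 after the correction, 8 with total-count scaling and 2 to 28 leaving out 1 library. In MRL/lpr+MSC against MRL/mpj the number that passed, 12, was 6 with all 9 libraries in one fit, 6 with the replicate block, 23 with the weights, 7 with total-count scaling and 1 to 30 leaving out 1 library, and the differentially expressed number, 6, was 14 with the weights and 1 to 15 leaving out 1 library. In MRL/lpr+MSC against MRL/lpr, 0 members passed under every alternative. The share of all genes that passed under each alternative is not given beside these counts, so they do not show shifts particular to the members. The weights, the correction, total-count scaling and limma-trend were chosen after seeing the data. The median of all genes in MRL/lpr moved from 0.02 to -0.12 (log2) after the correction and to 0.15 with total-count scaling, where the members stood at -0.30 and -0.04. The higher and lower calls among members in MRL/lpr+MSC against MRL/mpj were 3 and 9 as reported, 3 and 4 with total-count scaling, 10 and 13 with the weights, 1 and 11 after the correction and 1 and 5 with all 9 libraries. The cause of these shifts was not tested.

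Same-numbered libraries did not deviate together in every pair (correlation of deviations -0.0205, 0.133 and 0.0545 for MRL/mpj with MRL/lpr, -0.059, 0.127 and 0.222 for MRL/mpj with MRL/lpr+MSC, and -0.205, 0.252 and 0.403 for the last pair). These values cannot decide whether the numbers link samples, since some lay near 0 and others reached 0.252 and 0.403. No label says that they do. With the replicate block, 18 members passed in MRL/lpr and 14 of the 17 calls held, and 6 passed in MRL/lpr+MSC and 5 of 12 held.

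Log2 fold changes of named genes changed sign in 19 instances, none of them in a comparison where the gene passed. Leaving out 1 library, the range in MRL/lpr was -0.269 to 0.0239 for Kcng2, -0.0149 to 0.0369 for Kcnip2 and -0.109 to 0.622 for Kcnrg. In MRL/lpr+MSC it was -0.492 to 0.0497 for Kcnc2, -0.666 to 0.182 for Kcnq5, -0.512 to 0.0119 for Kcnma1, -0.0811 to 2.70 for Kcne2, -0.146 to 0.144 for Kcna2, -0.231 to 0.115 for Kcnc1, -0.160 to 0.0703 for Kcnn1 and -0.0834 to 0.286 for Kcnq1. The GC content and length correction gave -0.180 for Kcnip2 in MRL/lpr. In MRL/lpr+MSC, total-count scaling gave 0.0154 for Kcnip2, 0.0188 for Kcnc1 and 0.0404 for Kcnn1, and library quality weights gave -0.0778 for Kcna2. The edgeR and DESeq2 alternatives were not run. With 3 libraries a group, the interval of a typical member spanned 0.45 to either side on the log2 scale in MRL/lpr.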
